A study of Homo sapiens with 6 samples.

Results

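The immune checkpoint ligands described here are 10 genes whose products are read by receptors on T cells, natural killer (NK) cells and phagocytes: CD274, PDCD1LG2, CD80, CD86, ICOSLG, CD276, LGALS9, TNFRSF14, PVR and CD47. They were taken by symbol from the deposited counts, and all 10 were found among the 23368 symbols listed. A filter on low counts kept 8 of the 10, as part of 13209 genes tested, while PDCD1LG2 and CD80 fell below it and were not tested. CD274 passed the filter only through the maltonis libraries. The genes were selected on knowledge of their counts in this same comparison, so their levels and fold changes are given as a description, with no test of their own.

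RNA was sequenced from NB4, an established cell line from a human acute promyelocytic leukemia, after 24 h in culture. Maltonis is a synthetic molecule derived from maltol. The cells were either not treated (n.t., 3 libraries) or exposed to maltonis at 10 µM over those 24 h (3 libraries), and all 6 libraries were made from total RNA with a strand-specific kit. The labels name no vehicle for the n.t. cells, while the maltonis stock was made in water, and a single cell line stands for the disease, with no T cells or other partner cells in the culture. The study calls the 3 libraries of a group biological replicates, but the labels do not say that they came from separate cultures, and the p-values given here measure only the spread between these libraries, which may be technical.

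An immune checkpoint is a receptor that tunes a lymphocyte or phagocyte when it meets its ligand on another cell. PD-L1, the product of CD274, and PD-L2, that of PDCD1LG2, engage PD-1 and dampen activated T cells, whereas CD80 and CD86 give the second signal for T cell activation through CD28 and are removed from that role by CTLA-4. Interferons are the best known inducers of PD-L1, acting through JAK kinases, STAT proteins and IRF1, and myeloid cells raise CD86 as they mature into antigen-presenting cells.

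Depth ran from 18492154 to 38205483 counts in a library, and 3 counts, taken as the limit of detection, equal 0.0828 to 0.160 CPM (counts per 1e6 counts of the scaled library). Of all genes tested, 64.0% were called at a false discovery rate (FDR) below 0.01 in the quasi-likelihood test of edgeR, adjusted after Benjamini-Hochberg, 31.9% higher and 32.1% lower with maltonis, and the median log2 fold change of all genes was 0.01. A change beyond 2.5-fold was met by 20.3%, 9.95% in the higher and 10.4% in the lower direction. The 12 promyelocyte markers summed to 14984 to 17548 CPM in n.t. and 9196 to 9752 CPM in maltonis-treated cells, mostly from MPO, the myeloperoxidase of azurophil granules. The sum follows MPO, while the markers moved in both directions. MPO, CEBPE, CD33, MYB, SPI1, ANPEP and FUT4 were called lower, ELANE, CTSG, AZU1 and KIT higher, and PRTN3 was not called. ELANE, with 3, 6 and 2 counts in the n.t. libraries, averaged 0.129 CPM there and 17.4 CPM in maltonis-treated cells. It passed the filter only through the maltonis group. Of 8 T cell markers, CD7 had no count in any library and CD3E at most 2 counts, whereas CD3D and CD4 gave most of a sum of at most 101 CPM in n.t. and 38.8 to 39.9 CPM in maltonis-treated cells. The 6 B cell markers summed to 19.5 to 29.4 and 10.9 to 13.2 CPM, nearly all CD79B, with MS4A1 at 0. The 5 NK cell markers summed to 19.5 to 35.8 and 5.89 to 7.04 CPM, nearly all NCAM1, with KLRF1 at 0. The 5 erythroid markers did not exceed 0.0533 CPM. The 6 markers of stroma and epithelium summed to 16.0 to 17.7 and 10.5 to 12.9 CPM, nearly all EPCAM.

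Of the 8 checkpoint ligands tested, CD274 and CD86 were called higher with maltonis, both beyond 2.5-fold, ICOSLG was called lower, and CD276, LGALS9, TNFRSF14, PVR and CD47 were not called. These 3 calls stand beside the 64.0% of all genes called, and the 2 beyond 2.5-fold beside 20.3%, but nothing is read from this, since the same contrast was known when the genes were chosen. The n.t. and maltonis values did not overlap for 6 of the 8 ligands tested, near the 76.6% of all genes tested. With maltonis, 4 of them were higher (CD274, CD86, LGALS9 and CD47) and 2 lower (ICOSLG and CD276), beside 38.8% and 37.8% of all genes tested. PDCD1LG2 and CD80, which were not tested, overlapped.

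**Figure D1:**
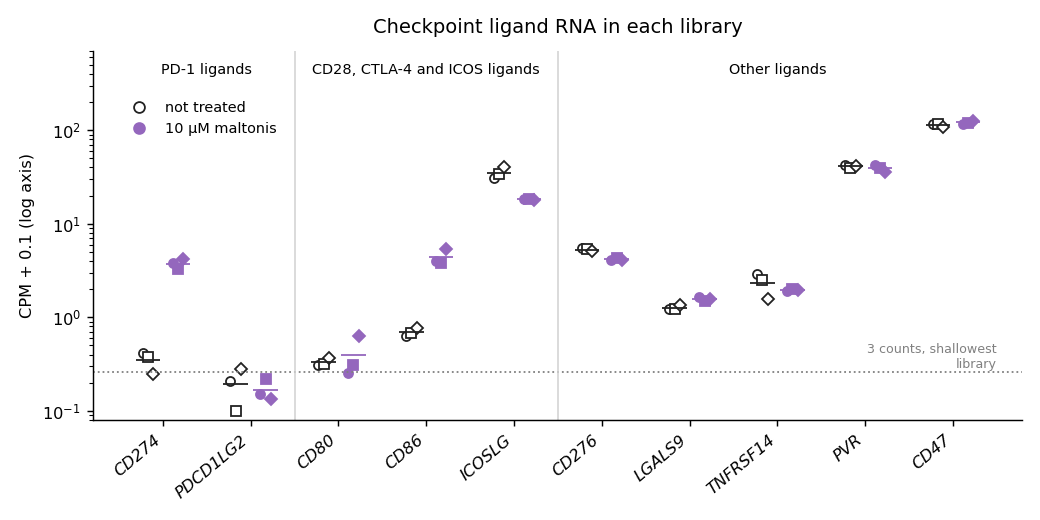
Level of the 10 checkpoint ligands in each library, as CPM + 0.1 on a log axis, with open symbols for n.t. and filled symbols for maltonis-treated cells. Circles, squares and diamonds are replicates 1, 2 and 3, short lines are group means, and the dotted line marks 3 counts in the library of lowest depth. CD274 and CD86 are the genes with all 3 maltonis libraries far above the n.t. ones, and ICOSLG shows the opposite order.

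CD274 was low in n.t. cells, not far above the limit of 3 counts, and well above that limit in all 3 maltonis libraries. The n.t. libraries held 6, 10 and 5 counts of CD274 and the maltonis libraries held 71, 107 and 115. In CPM this was 0.320, 0.276 and 0.151 in n.t. and 3.67, 3.19 and 4.08 in maltonis-treated cells. Every maltonis library lay far above every n.t. library. The group means were 0.249 ± 0.0876 (SD, n = 3) and 3.65 ± 0.446 CPM (SD, n = 3), with a log2 fold change of 3.90 ± 0.250 (SE), equal to 15.0-fold. Ordered by log2 fold change, CD274 was number 125 from the top of the 13209 genes tested. With so few n.t. counts the size is loosely set: the summed counts, 21 against 293, gave a ratio of 15.2 with a 95% interval of 9.74 to 24.9, and this interval, like the others given here, covers counting error only. Same-numbered libraries differed by 3.17, 3.13 and 4.06 on the log2(CPM + 0.1) scale, where the 0.1 added is close to the n.t. values and shrinks the differences. In bulk RNA, more RNA per cell and a larger share of cells with CD274 RNA cannot be told apart.

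The stretch before the CD274 start site is shown because it holds motifs of the interferon pathway, whose genes are described further on. It was taken from RefSeq promoters on build GRCh38.p14, chr9:5450292-5450541, plus strand, and covers the 250 bases before the start. The files themselves were made on build hg19, so the position of the counts was not compared with it. Capitals mark matches to the ISRE core (GAAA, any 2 bases, GAAA, bound by interferon regulatory factors) and to the GAS element (TTCNNNGAA, bound by STAT dimers), searched on both strands. The short stretch of LGALS9, chr17:27631149-27631188, plus strand, 40 bases that end with the first transcribed base, is shown because it holds the other ISRE core match among the ligands.
CD274: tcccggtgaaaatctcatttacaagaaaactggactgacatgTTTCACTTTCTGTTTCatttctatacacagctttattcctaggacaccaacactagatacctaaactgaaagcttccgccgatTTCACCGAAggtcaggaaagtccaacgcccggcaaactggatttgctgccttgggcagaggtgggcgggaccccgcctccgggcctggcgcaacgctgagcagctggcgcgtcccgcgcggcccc
LGALS9: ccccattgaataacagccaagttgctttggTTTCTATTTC

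In CD274 the ISRE core was matched in overlapping copies from −208 to −199 and from −202 to −193 before the start, and GAS from −125 to −117. In LGALS9 the ISRE core ran from −9 to 1, counted with no base 0. The search covered 11 windows of 300 bases (250 before to 50 after the start) for 9 of the ligands, CD86 and CD276 with a pair of starts each, and PDCD1LG2 had no entry. ISRE core was found in 2 of the 11 windows and in 3.57% of 35116 RefSeq promoters, and GAS in 1 of 11 and in 7.66%. NF-kB (GGGA, any 2 bases, TTCC) and the E-box bound by MYC (CACGTG) were found in none of the 11 windows, against 1.61% and 7.26% of promoters. The HRE core of hypoxia factors (ACGTG, contained in the E-box) was found in 2 windows, those of CD47 and of the second CD276 start, and in 21.4% of promoters. A match describes the letters of this window only. Of the genes with an ISRE core match CD274 was called and LGALS9 was not, and CD86, which has no match, was called. The ligands were selected on this contrast, so this is a description. A role of any motif in these changes was not tested.

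PDCD1LG2, the gene of the second PD-1 ligand, lies beside CD274 on chromosome 9 and stayed at the limit of detection. Its counts were 2, 0 and 6 in n.t. and 1, 4 and 1 in maltonis-treated cells. The groups overlapped, and the ratio of summed counts, 6 against 8, was 0.816 with a 95% interval of 0.233 to 2.68. The interval covers counting error only, and no difference was detectable at this depth.

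CD86 was the other ligand with a large increase. Its counts were 10, 21 and 22 in n.t. and 75, 124 and 148 in maltonis-treated cells. The levels were 0.533, 0.580 and 0.663 CPM without treatment and 3.87, 3.70 and 5.25 CPM with maltonis. All maltonis libraries lay above all n.t. libraries, with means of 0.592 ± 0.0663 and 4.28 ± 0.852 CPM (SD, n = 3 each). The log2 fold change was 2.83 ± 0.215 (SE), or 7.09-fold. CD80, the other ligand of CD28 and CTLA-4, had 4, 8 and 9 counts in n.t. and 3, 7 and 15 counts in maltonis-treated cells. Its groups overlapped and the ratio of summed counts was 1.29, with a 95% interval of 0.696 to 2.43. By the annotation, 24.9% of the CD80 exon length overlaps TIMMDC1 on the opposite strand, a gene with 7967 summed counts in n.t. and 8444 in maltonis libraries, and whether counting used the strand is not given in the sources used here, so reads of both genes may be mixed.

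ICOSLG, whose product co-stimulates T cells through ICOS, changed in the opposite direction. It had 576, 1233 and 1352 counts in n.t. and 358, 607 and 503 in maltonis-treated cells. The levels were 30.7, 34.0 and 40.8 CPM without treatment and 18.5, 18.1 and 17.9 CPM with maltonis. The 3 maltonis libraries lay close together and all below the lowest n.t. library. The means were 35.2 ± 5.14 and 18.1 ± 0.318 CPM (SD, n = 3 each), a log2 fold change of −0.96 ± 0.107 (SE), so that the n.t. level was 1.94-fold that of treated cells. Within the B7 co-stimulators the balance of ICOSLG to CD86, per exon length, was 21.2, 21.6 and 22.6 in the n.t. libraries and 1.75, 1.80 and 1.25 in the maltonis libraries.

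**Figure D2:**
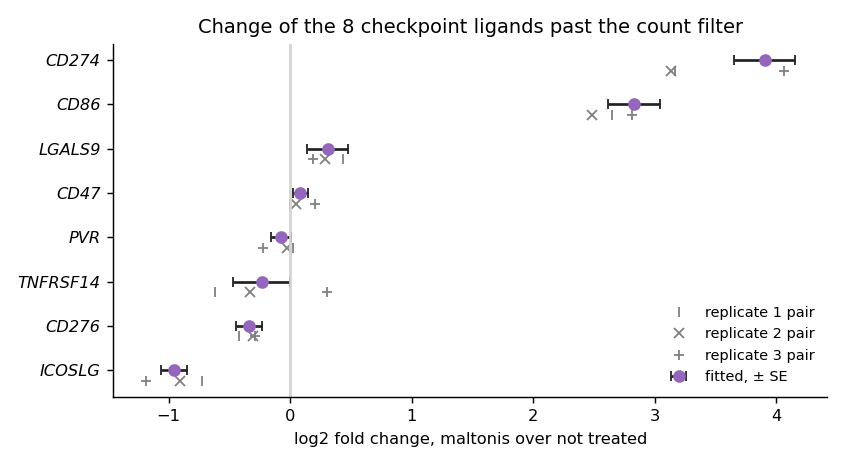
Log2 fold change, maltonis over n.t., of the 8 ligands that passed the count filter, with the fitted value ± SE as filled points and the differences of same-numbered libraries on the log2(CPM + 0.1) scale as grey marks. CD274 lies at 3.90 and CD86 at 2.83, ICOSLG at −0.96, and the others between −0.34 and 0.31, and TNFRSF14 has replicate pairs on both sides of 0. The 0.1 added shrinks the grey marks of CD274, whose n.t. values are low.

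The remaining ligands were not called. CD276 (B7-H3), an inhibitory member of the B7 family with no settled receptor, measured 5.43, 5.22 and 4.98 CPM in n.t. and 4.03, 4.21 and 4.05 CPM in maltonis-treated cells. The groups did not overlap, and the log2 fold change of −0.34 ± 0.107 (SE) was not called. LGALS9, which encodes galectin-9, a ligand of TIM-3, had 21, 41 and 42 counts in n.t. and 30, 47 and 41 in maltonis-treated cells, or 1.12, 1.13 and 1.27 against 1.55, 1.40 and 1.46 CPM. The maltonis values were all above the n.t. values, at a log2 fold change of 0.31 ± 0.166 (SE) that was not called. The near-identical copies LGALS9B and LGALS9C had at most 5 and 9 counts in any library, and how reads were shared among the copies is not given in the sources used here.

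TNFRSF14 (HVEM), which binds BTLA and CD160 as an inhibitor and LIGHT as a receptor, measured 2.82, 2.43 and 1.48 CPM in n.t. and 1.81, 1.91 and 1.85 CPM in maltonis-treated cells. The groups overlapped, with n.t. replicate 3 below every maltonis library and the other n.t. libraries above. The log2 fold change was −0.23 ± 0.235 (SE), −0.49 without n.t. replicate 3 and −0.09 without n.t. replicate 1, none of them called. The gene shares 13.4% of its exon length with TNFRSF14-AS1 on the opposite strand.

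PVR (CD155) and CD47 were the most abundant of the ligands and were not called either. PVR, read by TIGIT and CD96 as inhibitors and by CD226 as an activator, had 787, 1443 and 1373 counts in n.t. and 824, 1311 and 999 in maltonis-treated cells. The groups overlapped, with a log2 fold change of −0.07 ± 0.0802 (SE), and its sign turned when libraries were scaled by total counts (0.05) or by the upper quartile (0.01). CD47, the signal read by SIRP-alpha on phagocytes, measured 117.1, 116.7 and 108.8 CPM in n.t. and 117.3, 120.6 and 125.5 CPM in maltonis-treated cells. The lowest maltonis library lay just above the highest n.t. library, and the log2 fold change was 0.09 ± 0.0590 (SE) and not called. Scaling by total counts raised the median of all genes by 0.12 and CD47 to 0.20.

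Levels of different ligands were compared as RPKM, that is CPM divided by gene length in kilobases, with every annotated exon counted in the length. In n.t. cells the order of mean RPKM was CD47 (13.9), PVR (11.7), ICOSLG (3.76), CD276 (0.940), TNFRSF14 (0.361), LGALS9 (0.205), CD86 (0.172), CD80 (0.0734), CD274 (0.0606) and PDCD1LG2 (0.0405). Neighbours in this order had separate ranges over the 3 libraries, except that CD80 overlapped CD274 and CD274 overlapped PDCD1LG2. In maltonis-treated cells the order was CD47 (14.7), PVR (11.1), ICOSLG (1.94), CD86 (1.25), CD274 (0.888), CD276 (0.739), TNFRSF14 (0.298), LGALS9 (0.257), CD80 (0.0933) and PDCD1LG2 (0.0291), and only the last 2 had overlapping ranges. CD274 moved from place 9 to place 5 and CD86 from place 7 to place 4, while the first 3 places were held by the same genes. With the longest transcript as length, CD274 took place 6 in maltonis-treated cells, below CD276, LGALS9 stood above TNFRSF14, and the ranges of these last 2 overlapped in n.t. cells.

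**Figure D3:**
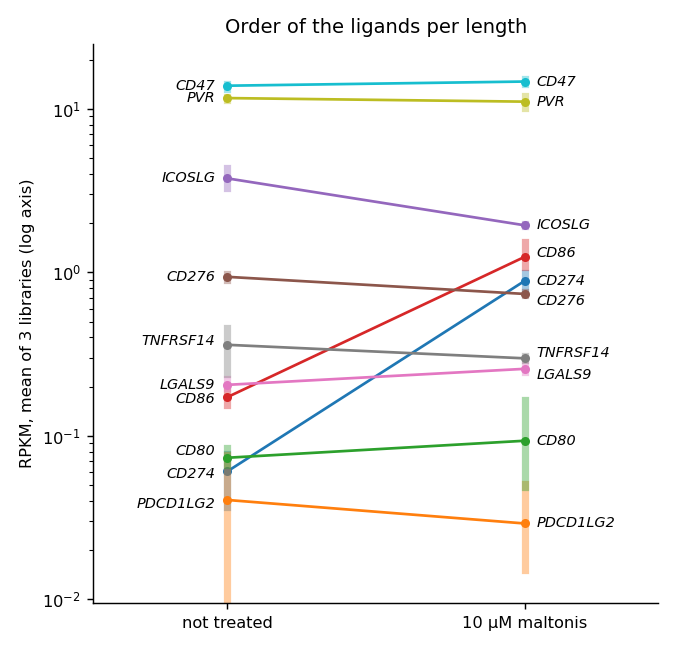
Mean RPKM of each ligand in n.t. (left) and maltonis-treated cells (right) on a log axis, with shaded bars from the lowest to the highest of 3 libraries. CD274 and CD86 cross CD276, TNFRSF14 and LGALS9 on the way up, and CD47 and PVR stay at the top of both columns. The bar of PDCD1LG2 in n.t. cells runs off the axis because 1 library had no count.

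Even after the increase CD274 was a minor part of this set of transcripts. CD47 exceeded CD274 by 229-fold in n.t. and by 16.6-fold in maltonis-treated cells in mean RPKM. The summed RPKM of the 10 ligands was 31.2 ± 0.219 in n.t. and 31.3 ± 0.368 in maltonis-treated cells (SD, n = 3 each). Of that sum, CD274 made up 0.194% ± 0.0677 before and 2.83% ± 0.338 after treatment, and CD86 0.553% ± 0.0641 and 3.98% ± 0.800. The share of ICOSLG was 12.1% ± 1.81 and 6.21% ± 0.0731. CD47 and PVR together held most of the sum in both groups, with 44.6% and 37.4% in n.t. and 47.0% and 35.4% in maltonis-treated cells.

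Other ligands of checkpoint and co-stimulatory receptors (32 genes) were listed for what they bind. The 6 lists used from here on were set with results of these data known, and their counts stand beside the 31.9% of all genes called higher and 32.1% called lower. Families with near-identical copies (BTN2A, BTN3A, HLA, MIC, LILRB and SIRP) are uncertain where counting split their reads. Of the 23 other ligands tested, 14 were higher and 6 lower with maltonis, with a median log2 fold change of 0.65 against 0.01 for all genes. Beyond 2.5-fold there were 6 higher and none lower, beside 9.95% and 10.4% of all genes tested. HHLA2, NECTIN4 and FGL1 passed the filter only through the maltonis group and CD24 only through the n.t. group. All of HHLA2, NECTIN4 and FGL1 are among the 14 higher, and HHLA2 and NECTIN4 are among the 6 beyond 2.5-fold. Genes that passed through 1 group, here and in the other lists, were tested because of their level in that group. Their values are a description with no p-value, and the list counts and medians that hold them depend in part on the filter. The butyrophilins BTN2A2 and BTN3A3, relatives of the B7 family, changed by 2.48 ± 0.0714 and 1.57 ± 0.0769 (log2 ± SE), with adjusted p-values of 3.36e-08 and 3.75e-07 (edgeR, Benjamini-Hochberg). TNFSF9, the ligand of 4-1BB, rose by 2.40 ± 0.195 (adjusted p = 6.54e-06, edgeR), and TNFSF4, that of OX40, by 1.38 ± 0.200 (adjusted p = 0.000251, edgeR). HHLA2, a B7 relative with 9 counts in n.t. and 41 in maltonis libraries, had a log2 fold change of 2.26 ± 0.365.

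NECTIN4, a ligand of TIGIT listed as PVRL4, had 5, 5 and 3 counts in n.t. and 11, 19 and 11 in maltonis-treated cells. Its log2 fold change was 1.74 ± 0.411, and it was no longer called without n.t. replicate 2 (1.66), n.t. replicate 3 (1.43), maltonis replicate 1 (1.66) or maltonis replicate 2 (1.59) and by DESeq2 (1.71). The most abundant of the list was LGALS1, the galectin-1 gene, at 493 ± 28.2 RPKM in n.t. and 742 ± 13.8 RPKM in maltonis-treated cells, a rise of 0.59 ± 0.0604 on the log2 scale. HLA-E, the ligand of NKG2A, went from 62.9 ± 4.68 to 111 ± 7.25 RPKM and CD70, that of CD27, from 23.7 ± 2.77 to 33.5 ± 1.48 RPKM, both called higher. HMGB1, a TIM-3 ligand better known as a chromatin protein, fell from 65.1 ± 1.42 to 27.8 ± 2.24 RPKM, a log2 fold change of −1.23 ± 0.0700 (adjusted p = 8.33e-07, edgeR).

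NK receptor ligands were mostly at or near 0, with 11 of 12 listed in the files and 5 tested. CLEC2B, the ligand of NKp80, went from 1.24 ± 0.0880 to 3.29 ± 0.389 RPKM (log2 fold change 1.43 ± 0.128) and MICA, a ligand of NKG2D, from 3.49 ± 0.239 to 6.93 ± 0.358 RPKM (0.99 ± 0.0930), both called higher. CLEC2D, the ligand of CD161, was called lower at −0.49 ± 0.112, a call lost without n.t. replicate 2 (−0.43), without maltonis replicate 1 (−0.46), without maltonis replicate 2 (−0.46) and with scaling by total counts (−0.37), which left 2 higher and none lower. BAG6 and MICB, the most abundant of the list at 63.1 and 15.3 RPKM in n.t. cells, gave log2 fold changes of −0.03 and −0.05 and were not called. The median of the 5 was −0.03.

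The receptors that read these ligands belong to lymphocytes and phagocytes, and most of the T cell ones had few or no counts in NB4 cells. CTLA4 and CD28 had no count in any library, ICOS at most 1, and PDCD1, the PD-1 gene, 2, 3 and 2 counts in n.t. and 1, 0 and 1 in maltonis-treated cells. TIGIT had 5 counts in maltonis replicate 2 and none elsewhere. Of the 34 receptors listed, 15 were tested, 7 were higher and 5 lower, and the median log2 fold change was 0.37. The balance rested on single libraries, with 3 higher and 5 lower without n.t. replicate 2, and 4 and 4 without maltonis replicate 2 or maltonis replicate 3. TNFRSF9, the 4-1BB receptor of TNFSF9, went from 0.113 ± 0.0117 to 0.654 ± 0.0550 RPKM, a rise of 2.53 ± 0.163 (adjusted p = 1.64e-06, edgeR). LILRB4, an inhibitory receptor of myeloid cells, had 28 summed counts in n.t. and 93 in maltonis libraries and a log2 fold change of 1.83 ± 0.340. CD226, the activating receptor of PVR, had 20 counts in n.t. and 56 in maltonis libraries and a log2 fold change of 1.58 ± 0.339. Both LILRB4 and CD226, which are among the 7 higher, passed the filter only through the maltonis group. The call of CD226 was lost without n.t. replicate 2 (1.23), without maltonis replicate 2 (1.55) and without maltonis replicate 3 (1.52).

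SIRPA, the receptor of CD47, fell from 8.25 ± 0.387 to 3.24 ± 0.563 RPKM, a log2 fold change of −1.36 ± 0.118 (adjusted p = 9.89e-06, edgeR), and SIRPG, which also binds CD47, from 1.95 ± 0.413 to 0.325 ± 0.163 RPKM (−2.63 ± 0.293, adjusted p = 4.70e-05, edgeR). LAIR1, SIRPB1 and PILRA, the next most abundant receptors, had log2 fold changes of 0.37, −0.39 and 0.68 and were called, and each call depended on single libraries. The call of LAIR1 was lost without n.t. replicate 2 (0.36), n.t. replicate 3 (0.30), maltonis replicate 1 (0.29) or maltonis replicate 3 (0.37). That of SIRPB1 was lost without n.t. replicate 3 (−0.35), maltonis replicate 2 (−0.36) or maltonis replicate 3 (−0.42) and with scaling by total counts (−0.27) or upper quartile (−0.31), and that of PILRA without n.t. replicate 2 (0.55) or maltonis replicate 2 (0.59).

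Some partners of the ligands and of their regulation are added here, chosen after their values had been seen, so these are a description with no p-value. TNFSF14, the LIGHT ligand of TNFRSF14, was called lower at −0.51 ± 0.126, while BTLA had 2 counts in n.t. and 14 in maltonis libraries and was not tested. HAVCR2, the TIM-3 receptor of LGALS9, had a log2 fold change of −0.45 ± 0.172 and was not called. IRF1, named above as a factor of PD-L1 induction, went from 5.92 ± 0.322 to 8.06 ± 0.311 RPKM, a rise of 0.45 ± 0.0683. In its list, given below, 10 genes were higher, 6 lower and 8 not called. IRF2 (0.14), STAT3 (−0.06) and IFNAR2 (0.06) were not called, and JAK1 was called lower (−0.37).

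**Figure D4:**
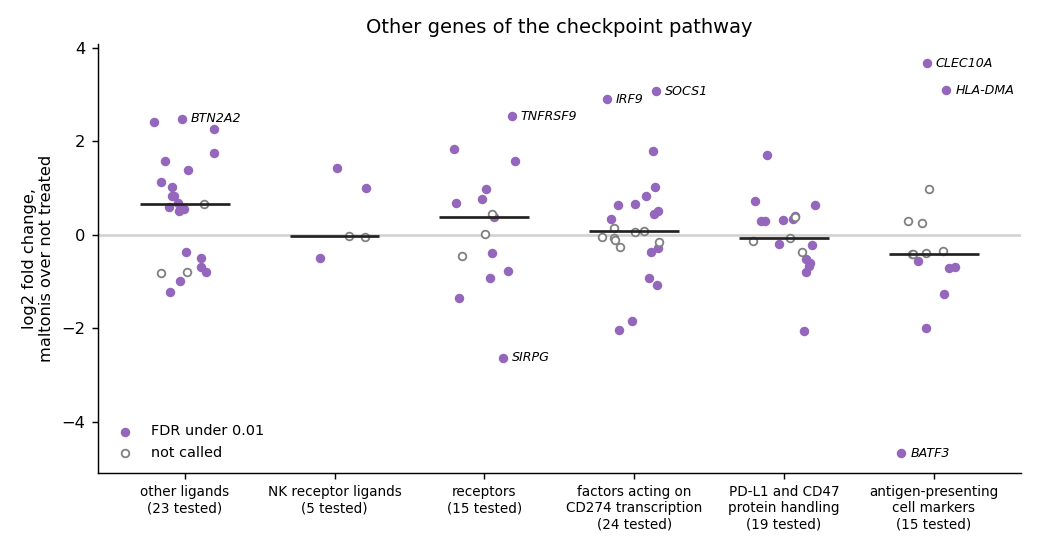
Log2 fold change, maltonis over n.t., of every tested gene in the 6 lists around the ligands, with filled points for an FDR under 0.01 and open points for genes not called. Black lines are list medians, from 0.65 for other ligands to −0.42 for antigen-presenting cell markers, and the named points are the ones farthest from 0.

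Factors known to act on CD274 transcription moved in both directions. All 24 listed were tested, 10 were higher and 6 lower, and their median log2 fold change was 0.07. SOCS1, an inhibitor of JAK signaling that is itself induced by interferon, rose by 3.07 ± 0.203 from 0.859 ± 0.151 to 7.41 ± 1.63 RPKM (adjusted p = 1.9e-06, edgeR). IRF9 and STAT2, which act in type I interferon signaling, rose by 2.90 ± 0.0889 and 1.80 ± 0.0536 (adjusted p = 4.36e-08 and 3.83e-08, edgeR). The kinase TYK2 went from 50.5 ± 5.32 to 102 ± 7.88 RPKM (1.02 ± 0.0898) and was called higher. In the opposite direction, JUN fell by 2.04 on the log2 scale (SE 0.115) and MYC, reported to bind the CD274 promoter, went from 220 ± 19.2 to 61.6 ± 2.21 RPKM, a change of −1.84 ± 0.0763 (adjusted p = 7.6e-07 and 1.66e-07, edgeR). IFNGR2, a chain of the interferon gamma receptor, went from 39.7 ± 2.81 to 18.8 ± 0.726 RPKM and was called lower (−1.08 ± 0.0703). The other chain, IFNGR1, went from 20.8 ± 0.976 to 32.2 ± 2.32 RPKM (0.63 ± 0.0722), and IFNAR1 rose by 0.66 ± 0.0934, both called higher. IFNGR1 and IFNAR1 were added after their values had been seen.

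Genes that act on the PD-L1 or CD47 protein were split, with 8 of 19 tested higher, 7 lower and a median log2 fold change of −0.07. Scaling by total counts gave 9 higher and 3 lower, and scaling by the upper quartile 9 higher and 4 lower. CMTM6 and CMTM4 protect PD-L1 from degradation. CMTM6 rose from 49.1 ± 0.973 to 62.2 ± 3.78 RPKM (0.34 ± 0.0614) and CMTM4 fell from 3.40 ± 0.196 to 0.814 ± 0.0509 RPKM (−2.06 ± 0.0892, adjusted p = 2e-07, edgeR). SPPL2A, a membrane protease that cleaves PD-L1 remnants, rose from 1.64 ± 0.201 to 5.35 ± 0.110 RPKM (1.71 ± 0.0930, adjusted p = 6.35e-07, edgeR). STT3B, a subunit of the glycosylation enzyme, was called lower at −0.52 ± 0.0552. CDK4, at 103 RPKM the most abundant of the list in n.t. cells, was called lower at −0.21 ± 0.0548, and its call was lost without n.t. replicate 2 (−0.18), maltonis replicate 2 (−0.23) or maltonis replicate 3 (−0.22), with scaling by total counts (−0.09) or the upper quartile (−0.12), and by edgeR's likelihood ratio test (−0.21). The deubiquitinase USP22, at 87.3 RPKM, was not called (−0.14 ± 0.0522), except with only replicates 2 and 3 (−0.17). Without maltonis replicate 3, 9 genes of the list were called instead of 15, 6 higher and 3 lower, and without n.t. replicate 2 it was 8 higher and 3 lower.

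CD86 is also a mark of maturing antigen-presenting cells, so other markers of those cells were listed. Of 34, 15 were tested, 2 were higher and 6 lower, and the median log2 fold change was −0.42. The higher ones include CLEC10A and the lower ones BATF3, which each passed the filter through 1 group only. With no filter on low counts 5 were higher and 6 lower, by DESeq2 or without maltonis replicate 3 it was 4 and 6, and without any 1 of the n.t. replicates or by the likelihood ratio test 3 and 6. CLEC10A, a lectin of dendritic cells and macrophages, had 2, 3 and 2 counts in n.t. and 20, 40 and 26 in maltonis-treated cells (3.66 ± 0.334), and passed the filter only through the maltonis group. HLA-DMA, which helps load class II molecules, rose from 0.245 ± 0.0749 to 2.14 ± 0.410 RPKM (3.09 ± 0.243, adjusted p = 5.37e-06, edgeR). BATF3, a factor of cross-presenting dendritic cells, measured 2.24 ± 0.233 RPKM in n.t. and 0.0799 ± 0.0373 RPKM in maltonis-treated cells (−4.67 ± 0.239), and passed the filter only through the n.t. group. FSCN1, the actin-bundling fascin of mature dendritic cells, fell from 222 ± 28.1 to 55.5 ± 7.37 RPKM (−2.0 ± 0.12, adjusted p = 1.08e-06, edgeR). CD83 and IRF8 were called lower, at −0.70 ± 0.0730 and −0.56 ± 0.110, and CD68 was not called (−0.36 ± 0.163), except with the replicate block and with only replicates 2 and 3 (−0.38). CD14 and CD74, not called, passed only through the maltonis group. CD40 had at most 5 counts in any library, CD1B, CD1C, CD163, CD209 and CLEC9A at most 1, and MRC1 none. Some genes under the filter, named after their values were seen, had more counts in every maltonis library than in any n.t. library: the class II genes HLA-DRB1 (1 summed count in n.t., 19 with maltonis), HLA-DQB1 (3 and 26) and HLA-DMB (4 and 32), and the factor IRF4 (8 and 25). In CPM, 38.8% of all genes tested were likewise higher in every maltonis library. The share among genes under the filter was not computed, so nothing is read from this separation. Other class II genes under the filter overlapped between the groups. These were HLA-DRA (5 and 8), HLA-DPA1 (3 and 5), HLA-DPB1 (0 and 1) and HLA-DQA1 (0 and 1). CIITA (6 and 12), also on the list, overlapped too.

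None of the neighbours of CD274 and PDCD1LG2 on chromosome 9 was higher beyond 2.5-fold, beside 9.95% of all genes tested, so that 0 of 10 is near the background. The same 10 genes are the 5 nearest tested on either side of both, and 4 were called higher, 2 lower and 4 not called. The shares of all genes tested were 31.9% higher and 32.1% lower. JAK2, the kinase gene before CD274, went from 39.1 ± 0.933 to 49.5 ± 2.30 CPM (0.34 ± 0.0655), a call lost without maltonis replicate 2 (0.30) or maltonis replicate 3 (0.29). C9orf46, next to CD274 on the same side, had a log2 fold change of 0.20 ± 0.0795 and was not called, except with scaling by total counts (0.32). Further out on that side, CDC37L1 was called higher (0.31 ± 0.0635), a call lost without n.t. replicate 2 (0.29), maltonis replicate 2 (0.30) or maltonis replicate 3 (0.28), AK3 was not called (−0.11 ± 0.0608) and RCL1 was called lower (−0.57 ± 0.0752).

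On the side of PDCD1LG2, KIAA1432 was not called (−0.16 ± 0.0499), but was called by DESeq2 and with only replicates 2 and 3 (−0.17 in both). ERMP1 fell from 77.2 ± 9.84 to 24.5 ± 1.35 CPM, a log2 fold change of −1.66 ± 0.103 (adjusted p = 1.31e-06, edgeR). KIAA2026 (0.49 ± 0.0954) and RANBP6 (0.43 ± 0.0628) were called higher. MLANA (0.73 ± 0.311) was not called with all 6 libraries and was called without n.t. replicate 3 (1.15). Over the neighbours of all 10 ligands, 90 genes, 27 were higher (30.0%), 23 lower (25.6%) and 40 not called, beside 31.9% and 32.1% of all genes tested. Scaling by total counts gave 38 higher and 20 lower, and it called 4902 of all 13209 genes higher and 3652 lower.

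**Figure D5:**
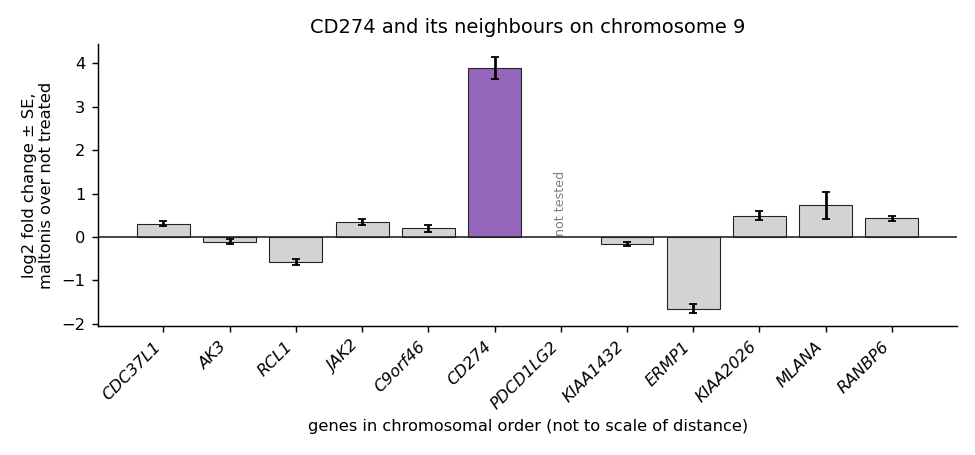
Fitted log2 fold change ± SE, maltonis over n.t., of CD274 and the 10 nearest tested protein-coding genes on chromosome 9, in chromosomal order and not to scale of distance. CD274 stands at 3.90, the neighbours lie between −1.66 (ERMP1) and 0.73 (MLANA), and PDCD1LG2 was not tested.

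The genes whose pattern over the 6 libraries was most like that of CD274 were TTC32, GNG4, MS4A6A, TTLL1 and MST1. Likeness was the root mean square difference of log2(CPM + 1) values after each gene was centred on its own mean, over 11913 genes with a mean of at least 1 CPM, and it ran from 0.0563 for TTC32 to 0.0824 for MST1. MS4A6A, a four-span membrane protein gene of myeloid cells, went from 1.28 ± 0.203 to 8.0 ± 0.347 CPM, and MST1, the gene of macrophage-stimulating protein, from 11.6 ± 1.11 to 44.2 ± 1.23 CPM. The likeness rests on 6 libraries in 2 groups, from which CD274 itself was selected. On this scale the difference of CD274 was 1.89, since its n.t. level lies well under the 1 CPM that is added, and the 5 genes had fitted log2 fold changes of 1.93 to 2.66, against 3.90 for CD274.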

How the data were processed

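Whole-number read counts per gene symbol, not normalized, were deposited by the authors for 6 NB4 libraries. The submitters' processing notes name TopHat, Bowtie2, HTSeq and build hg19, and their versions, the annotation and the strand setting of counting are not given in the sources used here, so overlapping, antisense and near-identical genes are uncertain. The replicate numbers come from the sample titles. The test was that of edgeR 4.0.16 under R 4.3.3 (TMM scaling, filterByExpr, quasi-likelihood test without covariates), with Benjamini-Hochberg adjustment over 13209 genes. A gene was called at an FDR under 0.01, and a large change was beyond 2.5-fold. CPM used TMM-scaled library sizes. RPKM used exon lengths of GENCODE 29, found for 21732 of 23368 symbols. Single-gene adjusted p-values are from edgeR unless another tool is named.

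The members and lists were chosen with earlier results of these data known. Named genes were, from each list, those called beyond 2.5-fold, at most 8, plus at most 4 with the highest RPKM in n.t. cells, the neighbours of CD274 and PDCD1LG2, and the 5 genes most like CD274, and 1 gene that this rule names is not reported here. Replicates were compared before averaging: chi-square per degree of freedom was 4.15 to 33.1, so that none were duplicates. Deviations of same-numbered libraries correlated at 0.458, 0.170 and 0.248 for replicates 1, 2 and 3, but n.t. replicate 3 with maltonis replicate 2 (0.286) and n.t. replicate 2 with maltonis replicate 3 (0.250) did so no less, so that only replicate 1 stood apart. The number was used as a block in an alternative fit. Other alternatives were DESeq2 1.42.0, its size factors, total counts, upper quartile, the likelihood ratio test, no filter, only replicates 2 and 3 (which share a code of unstated meaning in their names) and each library left out. The test was first run on simulated counts. Python 3.11.15 was used for tables and motif searches.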

Additional observations from a re-analysis of the deposited data

How the results depend on the processing

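The ligands were selected on this contrast, so their values under the alternatives are a description and no support. Over the 14 alternatives CD274 ranged from 3.61 to 4.05, CD86 from 2.62 to 2.95 and ICOSLG from −1.06 to −0.84 on the log2 scale, and these remained the 3 ligands called. Of 59 other genes named by rule, 42 were called in every fit that held them, 9 lost their call in at least 1 alternative, and 5 not called gained one. The count of genes acting on PD-L1 or CD47 protein ranged from 9 to 16 when a library was left out, and was 9 without maltonis replicate 3, with the cause not tested. The fit with the replicate block called 9222 genes instead of 8452, the same 3 ligands, 20 other ligands, 3 NK receptor ligands, 13 receptors, 16 transcription factors, 17 protein handling genes, 9 antigen-presenting cell markers and 59 neighbours, and among the named genes it changed only the call of CD68 (−0.36, adjusted p = 0.003, edgeR), which became lower. Levels of CD274, PDCD1LG2 and CD80 in n.t. cells are limited by depth.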
